A study of Mus musculus with 12 samples.

Results

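The genes of MHC class II presentation were followed in healing mouse skin. They are the 10 genes Cd74, H2-Aa, H2-Ab1, H2-Eb1, H2-DMa, H2-DMb1, H2-DMb2, H2-Oa, H2-Ob and Ciita, taken by symbol from the 55487 genes listed in each deposited table, and every one of the 10 was found and passed the expression filter in all 5 comparisons. The RNA came from full-thickness punch wounds of 6 mm, with the skin around them, on the back of male C57BL/6JNarl mice that were 6 weeks old and carried 2 wounds each. Wounds of the sham group (labelled P-F127) received 200 µl of Pluronic F127 gel on the skin once daily, and CAP-treated wounds (labelled CAP) received the same gel with 10 µM capsaicin, the pungent compound of chili peppers. Tissue was taken at day 3 or day 6, which gives 4 groups of 3 libraries. No group carried a mutant allele, no wound without gel was among these libraries, and all wounds were kept under the same film dressing. The sources used here do not say if the 3 libraries of a group are 3 mice. Here n counts libraries, and a p value measures only their spread, which may be technical.

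MHC class II molecules are cell surface receptors that show peptides from swallowed material to CD4+ T cells. Dendritic cells, macrophages and B cells make them, and in skin so do the Langerhans cells of the epidermis. An alpha and a beta chain pair in the endoplasmic reticulum with the invariant chain, encoded by Cd74, which blocks the peptide groove and leads the complex into endosomes. There cathepsins trim the invariant chain, H2-DM exchanges its last fragment for a peptide, and H2-DO holds H2-DM back. The genes share a promoter module of X and Y boxes, bound by RFX, CREB and NF-Y factors, and they are switched on by CIITA, a co-activator that itself answers to interferon-gamma.

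Of the 10 genes, 8 lie in 1 cluster on chromosome 17 of the build GRCm38, between H2-Oa (34092340 to 34095234) and H2-Eb1 (34305867 to 34316674). Ciita lies on chromosome 16 (10480059 to 10528418) and Cd74 elsewhere. The positions in the deposited tables were those of GENCODE M21 for all 10 genes. Promoter windows of RefSeq on GRCm38.p6, from 250 bases before to 50 bases after a start site, were at hand for 7 of the 10 genes. The letters of the motifs were chosen after these windows had been read, and both strands were searched. The Y box core ATTGG was found in 7 of these 7 genes and in 37.4% of all 32851 windows. The pair of AACNNATG, within the X box, and ATTGG after a gap of 15 to 35 bases was found in H2-Eb1, H2-DMb1, H2-DMb2 and H2-Ob, and in 0.174% of all windows. H2-Aa did not hold this pair. It held the CREB letters TGACGTCA, which 1.79% of all windows hold, and these were marked together with ATTGG. The stretches below hold the pair in H2-Eb1, H2-DMb2 and H2-Ob, and TGACGTCA with ATTGG in H2-Aa. They are given on the strand of the gene, and capitals mark the 2 motifs.

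H2-Eb1, chr17:34305763-34305822, plus strand: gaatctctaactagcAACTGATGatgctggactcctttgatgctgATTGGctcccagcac
H2-DMb2, chr17:34145113-34145173, plus strand: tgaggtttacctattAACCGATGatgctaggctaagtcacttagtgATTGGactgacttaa
H2-Ob, chr17:34238805-34238862, plus strand: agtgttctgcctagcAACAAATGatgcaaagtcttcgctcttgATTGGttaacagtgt
H2-Aa, chr17:34287857-34287912, minus strand: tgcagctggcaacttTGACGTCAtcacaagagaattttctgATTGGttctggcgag

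The gap between the 2 motifs was 22 bases in H2-Eb1, 23 bases in H2-DMb2 and 20 bases in H2-Ob. In H2-Aa it was 18 bases, counted from TGACGTCA, a different motif, and so is not comparable with the others. A match of letters is a description of the window and not a measured binding site. The H2-DMb2 stretch lies inside that gene as the deposited tables place it (34143307 to 34151555). The pair in H2-DMb1 falls in an exon of H2-DMb1 in GENCODE M21. In these genes the RefSeq start site of the window is thus not the first position in the tables.

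All values are TPM, a measure of transcript abundance scaled to the length of the gene and to the library, so levels of different genes can be set side by side. TPM holds no read counts, and the depth of the libraries is therefore unknown. In each library 18533 to 19325 genes had 0.3 TPM or more. The keratinocyte markers Krt5, Krt14, Krt1 and Krt10 summed to 22869 to 89818 TPM and the fibroblast markers Col1a1, Col1a2, Dcn and Pdgfra to 5602 to 13966 TPM, so both main cell types of skin were present. CAP replicate 2 of day 6 stood apart, with a Pearson's r across genes of 0.934 to 0.959 to the libraries of other groups against 0.953 to 0.973 for CAP replicates 1 and 3 of day 6, and the members are given with and without it below. The day 3 and day 6 tables carry a different number in the headers of their columns, whose meaning is not given, so day and any difference in handling cannot be told apart.

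Over the 12 libraries the means of the 10 genes ran from 1.38 to 805 TPM. Cd74 was the most abundant, with a mean of 805 TPM and rank 135 of all genes, followed by the beta chain H2-Ab1 (408 TPM), the alpha chain H2-Aa (293 TPM) and the beta chain H2-Eb1 (173 TPM). This order held in 12 of 12 libraries. The peptide editor chains came next, H2-DMa with 43.4 TPM and H2-DMb1 with 41.1 TPM, and their order held in 9 of 12 libraries. Ciita had 8.36 TPM and H2-DMb2 6.63 TPM, in this order in 9 of 12 libraries, and the H2-DO chains H2-Ob (1.56 TPM) and H2-Oa (1.38 TPM) were the lowest, in this order in 8 of 12. H2-DMa against H2-DMb1, Ciita against H2-DMb2, and H2-Ob against H2-Oa are therefore neighbours whose order changed between libraries. Their levels were not tested against each other. H2-Ea, the alpha chain that would pair with H2-Eb1 and that the C57BL/6 strain does not make, was listed at 0 in 12 of 12 libraries.

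The first comparison asks what CAP did to these genes at day 3, and each of the 10 had a lower mean under CAP than under gel alone. Cd74 and the 3 classical chains H2-Aa, H2-Ab1 and H2-Eb1 had log2 differences (CAP minus sham) from −1.02 to −0.88, and the 3 H2-DM chains from −0.52 to −0.39. H2-Oa, H2-Ob and Ciita lay between −1.051 and −0.73. In bulk tissue, fewer cells that carry class II and less class II RNA per cell cannot be told apart.

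**Figure D1:**
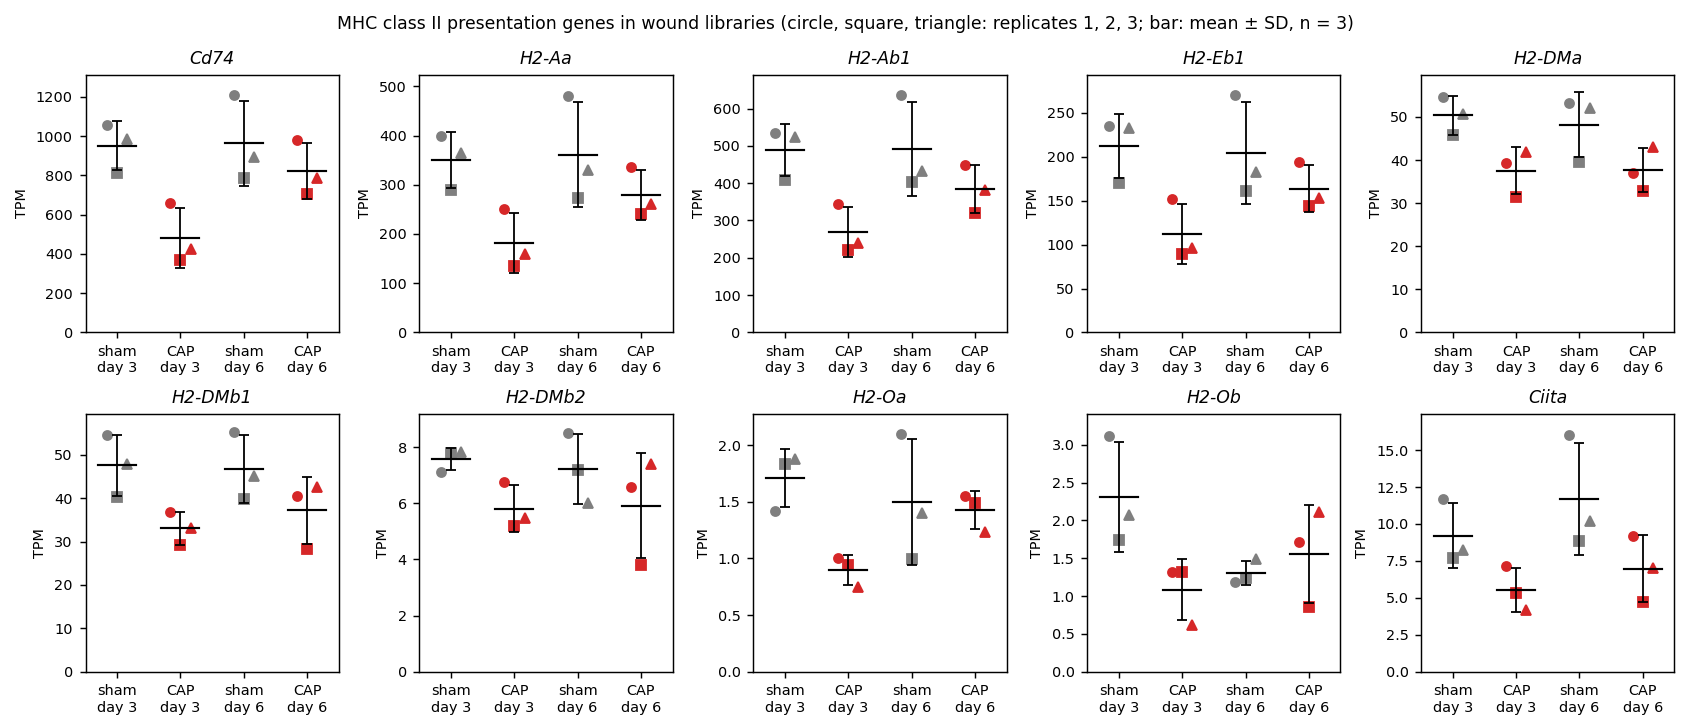
TPM of the 10 genes (vertical axes, linear and starting at 0) in the 4 groups, with grey symbols for sham and red symbols for CAP libraries, circle, square and triangle for replicates 1, 2 and 3, and bars for the mean ± SD (n = 3). At day 3 the red symbols lie below all grey symbols in 10 of 10 genes, and at day 6 the groups overlap in 10 of 10.

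Cd74 (chromosome 18, 60803848 to 60812652) had 1057, 814 and 986 TPM in the sham wounds of day 3 and 657, 368 and 423 TPM in the CAP-treated wounds. The highest CAP library was below the lowest sham library. On the scale log2(TPM + 0.1), Cd74 fell by 1.02 (SE 0.23, 95% interval from −1.56 to −0.47, limma unadjusted p = 0.00320, adjusted p = 0.500, by Benjamini-Hochberg over all genes). SE is the standard error. Reads of Mir5107, a miRNA gene of 88 bases inside Cd74 on the same strand, cannot be told apart from those of Cd74, and it had means of 10.3 and 3.61 TPM.

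The alpha chain H2-Aa had 398, 288 and 365 TPM in the sham wounds and 250.2, 135 and 159.8 TPM with CAP, a log2 difference of −0.99 (SE 0.24, limma unadjusted p = 0.00494). H2-Ab1, its partner, had 536, 407 and 524 TPM against 345, 220.2 and 239 TPM, a log2 difference of −0.88 (SE 0.20, limma unadjusted p = 0.00299). In both genes the groups did not overlap, and CAP replicate 1 was the highest of the CAP libraries. H2-Eb1, the beta chain whose alpha partner was listed at 0, had 235, 169.9 and 233 TPM against 152, 89.2 and 96.1 TPM, a log2 difference of −0.94 (SE 0.23, limma unadjusted p = 0.00466). All 3 chains were just short of the 2-fold line of the threshold. They kept close proportions to each other, since the ratio of H2-Ab1 to H2-Aa ranged from 1.32 to 1.63 over the 12 libraries and that of H2-Aa to H2-Eb1 from 1.51 to 1.80.

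The H2-DM chains form the enzyme-like editor that loads peptides. H2-DMa had 54.6, 45.7 and 50.7 TPM in the sham wounds and 39.3, 31.5 and 41.8 TPM in the CAP-treated wounds of day 3, a log2 difference of −0.43 (SE 0.13, limma unadjusted p = 0.0145). H2-DMb1 had 54.5, 40.3 and 47.9 TPM against 36.9, 29.1 and 33.0 TPM, a log2 difference of −0.52 (SE 0.14, limma unadjusted p = 0.00845). H2-DMb2 had 7.13, 7.80 and 7.81 TPM against 6.77, 5.19 and 5.47 TPM, a log2 difference of −0.39 (SE 0.15, limma unadjusted p = 0.0332). The groups did not overlap in the 3 genes, but the gap was small, 6.77 against 7.13 TPM in H2-DMb2. The 2 beta chains share sequence: of the 31-base stretches of H2-DMb2, 29.7% also occur in H2-DMb1, and how reads were split between them is uncertain. H2-DMa overlaps 3094 bases of Brd2 on the other strand, and Brd2 had means of 147 and 148 TPM in the sham and CAP groups of day 3.

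The H2-DO chains, which restrain H2-DM, were near 1 TPM. H2-Oa had 1.41, 1.83 and 1.88 TPM in the sham wounds and 1.0015, 0.943 and 0.751 TPM in the CAP-treated wounds, a log2 difference of −0.85 (SE 0.25, limma unadjusted p = 0.0108). H2-Ob had 3.12, 1.74 and 2.07 TPM against 1.31, 1.32 and 0.622 TPM and fell by 1.051 on the log2 scale (SE 0.36, 95% interval from −1.92 to −0.19, limma unadjusted p = 0.0241, adjusted p = 0.704). Ciita, the co-activator of the whole group, had 11.7, 7.67 and 8.25 TPM against 7.14, 5.35 and 4.18 TPM, a log2 difference of −0.73 (SE 0.25, limma unadjusted p = 0.0217). Its groups did not overlap either.

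The study's threshold is 2-fold with p below 0.05 before adjustment. By it limma called 2 of the 10 genes lower at day 3, Cd74 and H2-Ob, where 1.16% of all 18330 genes tested were called lower and 0.426% higher. An unadjusted p under 0.05 with a lower value was found in 10 of 10, against 5.14% of all genes (1.46% with a higher value). The groups did not overlap, with CAP lower, in 10 of 10, against 8.75% of all genes (2.86% with CAP higher). The median log2 difference of the 10 genes was −0.87, and that of all genes −0.05. After adjustment over all genes limma left 0 of the 10 under 0.05 (0.0164% of all genes), with adjusted p from 0.500 to 0.729. The exact permutation test of the 6 values, 2-sided, gave p = 0.1 for each of the 10, the smallest that 3 libraries against 3 can give. The 10 genes were measured in the same 6 libraries and are not independent of each other. The number called rests on single libraries: leaving out sham replicate 1 or CAP replicate 3 gave 0, leaving out sham replicate 3 or CAP replicate 2 gave 1, and leaving out sham replicate 2 or CAP replicate 1 gave 5. Without CAP replicate 1, Cd74 had an adjusted p of 0.0659 from limma, the lowest found for any member in any setting.

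At day 6, 9 of the 10 members had a lower mean with CAP, and the groups overlapped in each of the 10. Cd74 had 1208, 786 and 895 TPM in the sham wounds and 982, 704 and 786 TPM in the CAP-treated wounds, a log2 difference of −0.22 (SE 0.21, 95% interval from −0.70 to 0.27, limma unadjusted p = 0.329). H2-Aa had 481, 273 and 329 TPM against 337, 241 and 261 TPM, a log2 difference of −0.34 (limma unadjusted p = 0.178). The groups overlapped in both genes, and sham replicate 1 was the highest of the 6 libraries in each.

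H2-Ab1 had 637, 404 and 434 TPM in the sham wounds against 448, 319.9 and 383 TPM, and H2-Eb1 270.2, 161 and 183 TPM against 194, 144 and 153 TPM, with log2 differences of −0.34 and −0.30. H2-DMa had 53.1, 39.5 and 52.0 TPM against 37.1, 32.8 and 43.0 TPM, a log2 difference of −0.35 (SE 0.16, limma unadjusted p = 0.0606). In each of the 3 genes 1 or more CAP libraries reached above the lowest sham library. H2-DMb1 had 55.3, 39.9 and 45.2 TPM against 40.6, 28.4 and 42.6 TPM, and H2-DMb2 8.51, 7.17 and 6.02 TPM against 6.56, 3.79 and 7.39 TPM, with log2 differences of −0.34 and −0.33. H2-Oa had 2.099, 0.996 and 1.40 TPM against 1.55, 1.49 and 1.23 TPM, and its log2 difference of −0.02 turned to 0.10 with median-ratio scaling and 0.14 with quantile normalization. H2-Ob had 1.19, 1.23 and 1.49 TPM against 1.71, 0.851 and 2.11 TPM, a log2 difference of 0.16 (limma unadjusted p = 0.668). The spread of the CAP libraries of H2-Ob enclosed all sham libraries.

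Ciita had the most negative log2 difference of the members at day 6, but was not tested against the others. It had 16.03, 8.85 and 10.2 TPM in the sham wounds and 9.21, 4.69 and 7.01 TPM in the CAP-treated wounds, so CAP replicate 1 lay above sham replicate 2. The log2 difference was −0.74 (SE 0.31, 95% interval from −1.47 to −0.01, limma unadjusted p = 0.0472, adjusted p = 0.256, exact permutation p = 0.2), close to its value of day 3. The p was above 0.05 with median-ratio scaling (−0.62, limma unadjusted p = 0.0646) and without sham replicate 1 (−0.49, limma unadjusted p = 0.155) or CAP replicate 2 (−0.49, limma unadjusted p = 0.130), among other settings. The locus of Ciita overlaps that of Dexi, on the other strand, over 25888 bases, and Dexi had means of 33.7 TPM in the sham and 49.4 TPM in the CAP group.

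Limma called 0 of the 10 genes at day 6, where 2.34% of all 18323 genes tested were called lower and 1.46% higher. An unadjusted p under 0.05 was found in 1 of the 10, Ciita, against 12.5% of all genes with a lower value and 6.67% with a higher one. With the replicate number as a block, limma gave a lower value with such a p in 6 of the 10, against 15.2% of all genes. It is not known if the numbers mark pairs. The groups did not overlap in 0 of the 10, against 18% of all genes with CAP lower and 8.01% with CAP higher. After adjustment 0% of all genes stayed under 0.05. The median of the 10 genes was −0.33 on the log2 scale and that of all genes −0.12. Median-ratio scaling moved the median of all genes to 0.00, and that of the members was then −0.21. Without CAP replicate 2, the library that stood apart, the log2 differences of the 10 genes lay between −0.49 and 0.52 and 0 were called.

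**Figure D2:**
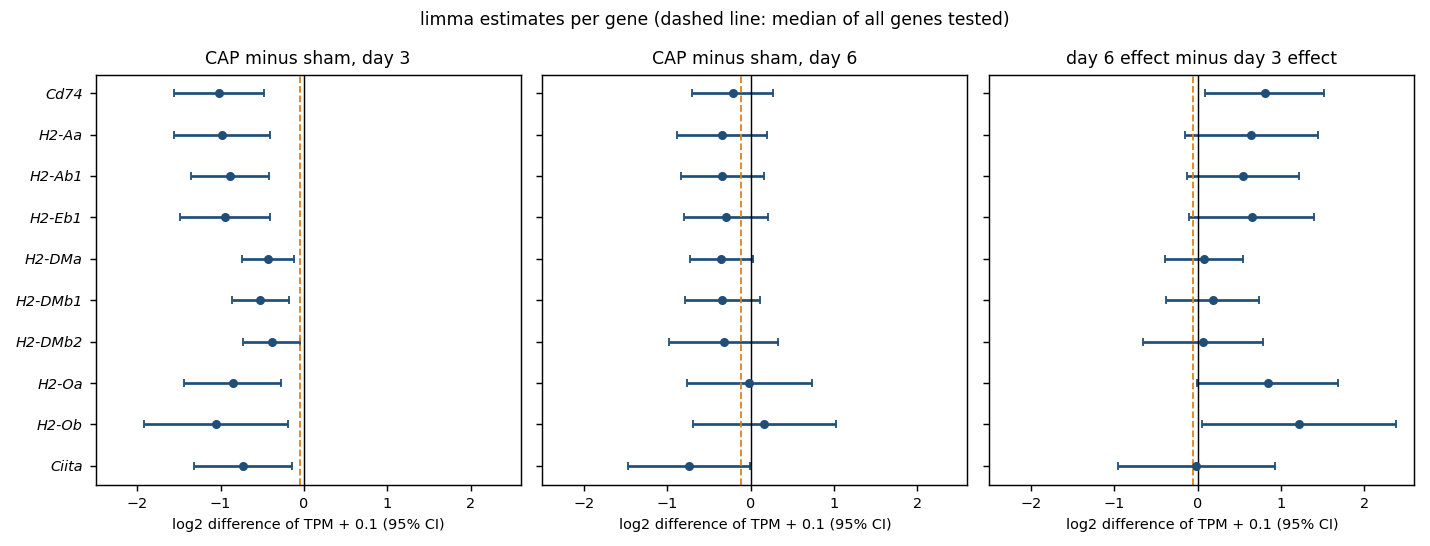
Log2 difference of TPM + 0.1 (horizontal axes) for the 10 genes as points with 95% intervals from limma, for CAP against sham at day 3, at day 6, and for the day 6 effect minus the day 3 effect, with a dashed line at the median of all genes tested. At day 3 all 10 intervals lie below 0, at day 6 that of Ciita does and 9 include 0, and in the third panel those of Cd74 and H2-Ob lie above 0.

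The difference between the effects of the 2 days was tested as an interaction over the 12 libraries. For Cd74 it was 0.80 on the log2 scale (SE 0.33, limma unadjusted p = 0.0318, adjusted p = 0.428), and for H2-Ob 1.21 (SE 0.53, 95% interval from 0.05 to 2.38, limma unadjusted p = 0.0425, adjusted p = 0.435). H2-Ob was the 1 member of 10 past the threshold in this test, where 2.18% of all 20267 genes were called higher, and 2 of 10 had an unadjusted p under 0.05 with a higher value, against 5.43% of all genes (5.88% with a lower one). H2-Ob was not called when sham replicate 1 or 3 or CAP replicate 3 of day 3 was left out, nor when sham replicate 1 or 2 or CAP replicate 1 or 3 of day 6 was, and H2-Oa was then called once, without sham replicate 1 of day 6. Without CAP replicate 1 of day 3 the number called was 2, with Cd74. Without CAP replicate 2 of day 6, the library that stood apart, H2-Ob had 1.57 and Cd74 0.91. The 3 classical chains had values from 0.54 to 0.65, with unadjusted p from 0.0831 to 0.104 from limma. The 3 H2-DM chains had values from 0.06 to 0.18 and Ciita −0.02, which turned to 0.03 with median-ratio scaling and 0.04 with quantile normalization. The interval of Ciita, from −0.95 to 0.92, leaves room for a difference of either sign.

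The days were also compared within each treatment. These comparisons reuse the libraries of the comparisons above, so their values are not independent of them. In the sham wounds the log2 difference of day 6 against day 3 was 0.00 for Cd74 (95% interval from −0.43 to 0.43, turning to −0.00093 with median-ratio scaling), and it lay between −0.08 and 0.01 for H2-Aa, H2-Ab1, H2-Eb1 and the 3 H2-DM chains. H2-Oa had −0.22 and Ciita 0.32, each with an unadjusted p above 0.2 from limma. H2-Ob had 3.12, 1.74 and 2.07 TPM at day 3 and 1.19, 1.23 and 1.49 TPM at day 6, so the days did not overlap. Its log2 difference was −0.75 (SE 0.27, limma unadjusted p = 0.0279, adjusted p = 0.236, exact permutation p = 0.1). Limma called 0 of 10 members, where 1.61% of all genes were called lower and 2.13% higher, and H2-Ob was the 1 member with an unadjusted p under 0.05 and a lower value (7.91% of all genes) and the 1 member lower without overlap (10.6% of all genes, with 10.8% higher). After adjustment 0 of 10 members stayed under 0.05, against 2.29% of all genes.

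In the CAP-treated wounds Cd74 and the classical chains had higher values at day 6 than at day 3, short of the threshold. Cd74 went from 657, 368 and 423 TPM to 982, 704 and 786 TPM, without overlap, a log2 difference of 0.80 (SE 0.245, 95% interval from 0.22 to 1.39, limma unadjusted p = 0.0143, adjusted p = 0.345, exact permutation p = 0.1). H2-Aa, H2-Ab1 and H2-Eb1 had log2 differences of 0.66, 0.53 and 0.57, with unadjusted p from 0.0349 to 0.0400 from limma, and CAP replicate 1 of day 3 overlapped with the day 6 libraries in each. H2-Oa had 0.61 (limma unadjusted p = 0.0475), without overlap. H2-DMa had 0.01, H2-DMb1 0.16 and H2-DMb2 −0.02, which turned to 0.02 with median-ratio scaling and 0.03 with quantile normalization. H2-Ob had 0.47 and Ciita 0.30. Limma called 0 of 10 members, where 1.27% of all 18202 genes were called higher and 1.52% lower, 5 had an unadjusted p under 0.05 with a higher value (5.66% of all genes, with 5.91% lower), and 2 were higher without overlap (8.05% of all genes, with 9.63% lower). After adjustment 0 of 10 stayed under 0.05, against 0.00549% of all genes. Without CAP replicate 1 of day 3, 1 was called, Cd74, and without CAP replicate 2 of day 6 Cd74 had 0.91, H2-Aa 0.76 and 0 were called. The median of the 10 was 0.50 on the log2 scale and that of all genes −0.05.

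Ratios within a library show how far the members kept pace with each other and with genes of the cells that carry them. For these, 16 ratios were compared at each day with the exact permutation test, 2-sided. The lowest p was 0.1 at each day, with an adjusted p of 0.32 at day 3 and 0.533 at day 6. With 3 libraries against 3 this test cannot give a p below 0.1, so no ratio could have passed the threshold. H2-Aa per H2-DMa was 7.30, 6.31 and 7.20 in the sham wounds of day 3 and 6.36, 4.29 and 3.82 in the CAP-treated wounds (p = 0.2 in the exact test). CAP replicate 1 lay within the sham range and the other two below it. At day 6 the same ratio was 9.05, 6.91 and 6.33 against 9.09, 7.33 and 6.05 (p = 0.9 in the exact test). Cd74 per classical chain (the sum of H2-Aa, H2-Ab1 and H2-Eb1) was 0.904, 0.941 and 0.879 against 0.880, 0.829 and 0.853 at day 3, with overlap. At day 6 it was 0.870, 0.938 and 0.947 against 1.002, 0.998 and 0.988, and all CAP libraries lay above all sham libraries (p = 0.1 in the exact test). The classical chains per Ciita at day 6 were 86.6, 94.6 and 92.7 against 106, 150.3 and 114, also without overlap (p = 0.1 in the exact test), while at day 3 they overlapped (p = 0.5 in the exact test).

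The classical chains were also set against markers of presenting cells. Per Csf1r, the receptor of monocytes and macrophages for their growth factor, they were 5.51, 5.69 and 5.58 in the sham wounds of day 3 and 4.82, 3.00 and 2.95 in the CAP-treated wounds. Per Cd68, a lysosomal protein of macrophages, they were 1.44, 1.22 and 1.19 against 1.01, 0.457 and 0.286. In both ratios the groups did not overlap (p = 0.1 in the exact test for each). Per Flt3, a receptor of dendritic cells, the ratios were 346, 320.4 and 284 against 268, 179 and 273, again without overlap. Per summed level of the 8 dendritic cell markers they were 28.6, 26.6 and 30.3 against 28.2, 23.7 and 16.4, and per Ptprc 13.5, 17.0 and 17.6 against 14.5, 8.84 and 7.07, both with overlap (p = 0.2 in the exact test for each). Per Cd209a, a lectin of monocyte-derived dendritic cells, they were 102, 101 and 124 against 117, 122.9 and 77.7, with overlap (p = 0.8 in the exact test). Per Ccr2, the chemokine receptor of inflammatory monocytes, the order was the other way, with 10.9, 11.1 and 12.3 against 15.2, 12.9 and 17.6 at day 3 and 17.5, 19.5 and 15.4 against 24.2, 47.95 and 19.8 at day 6 (p = 0.1 in the exact test at each day). At day 6 the ratios to Csf1r, Cd68, Flt3 and Cd209a overlapped (p from 0.4 to 0.9 in the exact test).

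**Figure D3:**
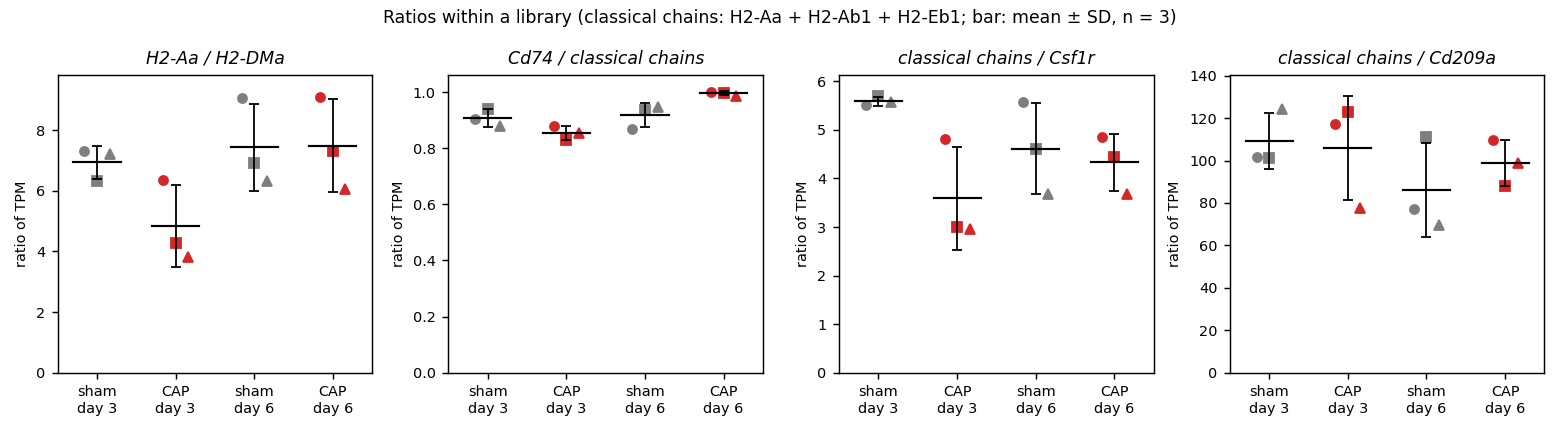
Ratios of TPM within a library (vertical axes, linear and starting at 0) in the 4 groups, with grey symbols for sham and red symbols for CAP libraries, circle, square and triangle for replicates 1, 2 and 3, and bars for the mean ± SD (n = 3). At day 3 the classical chains per Csf1r lie at 2.95 to 4.82 in CAP and 5.51 to 5.69 in sham libraries, and those per Cd209a overlap at both days.

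Of the cell type markers, some monocyte genes, Cd2 and the erythroid genes passed the threshold at day 3. Of 8 dendritic cell markers, 7 were tested, and 7 of 7 had a negative log2 difference, with a median of −0.72. Batf3, a transcription factor of cross-presenting dendritic cells, had −0.81 and Cd209a −0.85, each with an unadjusted p under 0.05, and 0 of 7 passed the 2-fold threshold. The summed level of the list was 32.6 to 40.9 TPM in the sham and 18.7 to 30.2 TPM in the CAP libraries. Of 10 monocyte and macrophage markers, 3 fell past the threshold, against 1.16% of all genes. They were Ly6c2 (by 2.48), Ccr2 (by 1.33) and Cx3cr1 (by 1.17). The list had a median of −0.15, with 6 of 10 negative. Mertk (0.67), Lyz2 (0.64), Cd68 (0.40) and Adgre1 (0.13) had positive log2 differences. The summed levels overlapped, at 3960.0 to 5590.1 against 4620.5 to 10025 TPM. Lyz2 was the most abundant of the list, with means of 3269 TPM in the sham and 5296 TPM in the CAP libraries. Cd207, which marks Langerhans cells, had a log2 difference of 0.08. The B cell markers summed to 1.52 to 3.80 TPM over the 12 libraries, with Ms4a1 between 0 and 0.133 TPM. The erythroid markers Hba-a1, Hbb-bs and Alas2 summed to 279.7 to 416 TPM in the sham and 1281 to 1534 TPM in the CAP libraries of day 3, and 3 of 3 rose past the threshold. The medians of the other lists at day 3 were −0.20 for T cells, with 1 of 5 lower past the threshold (Cd2), −0.10 for neutrophils, −0.05 for keratinocytes, −0.44 for fibroblasts, 0.02 for endothelial cells and −0.61 for skeletal muscle, with 0 past it, and Ptprc, which all leukocytes carry, had −0.21. At day 6 the dendritic list had a median of −0.32 with 0 of 7 past the threshold. Ccr2 was the 1 of 10 monocyte and macrophage markers that fell past it, by 1.04, against 2.34% of all genes. The median of these 10 markers was −0.52. The keratinocyte markers Krt1 and Krt10 rose past the threshold at day 6, by 1.86 and 1.62, and the endothelial markers Pecam1 and Cdh5 fell past it, by 1.004 and 1.15, as did Myh4 of skeletal muscle, while T cell, neutrophil, fibroblast and erythroid lists had medians of 0.11, −1.22, −0.41 and −1.12 with 0 past it. The part of these shifts in the values of the members, at either day, was not tested.

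The other genes of the class II pathway were taken as lists. Of 7 promoter factors tested at day 3, 0 passed the threshold, with a median log2 difference of −0.04. Rfx5, a subunit of the RFX complex, had 14.1, 16.1 and 13.9 TPM in the sham and 13.3, 10.96 and 11.4 TPM in the CAP libraries, a log2 difference of −0.31 (limma unadjusted p = 0.0419, adjusted p = 0.734). The groups of Rfx5 did not overlap. Of 9 genes of antigen processing, 0 passed the threshold at day 3 and 0 had an unadjusted p under 0.05 from limma. A positive log2 difference was found in 6 of 9, with a median of 0.25. Ctss, the cathepsin that trims the invariant chain, had 2406, 1804 and 2422 TPM against 1941, 1996 and 3802 TPM (log2 difference 0.16), and Ifi30, a reductase that unfolds antigens, 426, 337 and 372 TPM against 317, 334 and 391 TPM (log2 difference −0.12). CAP replicate 3 was the highest of the 6 libraries in Ctss, and the groups overlapped in both genes.

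At day 6 the median of the 9 processing genes was −0.54, with 0 past the threshold. In the test of the difference between the days, 3 of the 9 passed the threshold with a more negative effect at day 6. They were the proteases Ctsd (−1.34), Ctsb (−1.15) and Lgmn (−1.01), where 2.73% of all genes were called in this direction. Their unadjusted p lay between 0.0293 and 0.0388 and their adjusted p between 0.428 and 0.431, from limma. In each of the 3 genes CAP replicate 3 of day 3 was the highest of all libraries. The lowest was CAP replicate 2 of day 6, the library that stood apart. Values without either library are not given for these genes. The antigen processing list and the members had medians of opposite sign at day 3, 0.25 and −0.87. The CAP libraries of day 3 did not share the higher level of processing genes. CAP replicate 1 had 1556 TPM of Ctsb and 963 TPM of Lgmn, below the sham means of 1618 and 1093 TPM. Its Ctsd, at 2831 TPM, was above the sham mean of 2701 TPM. CAP replicate 3 had 3505, 1715 and 7463 TPM of Ctsb, Lgmn and Ctsd. No test of that difference was made.

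**Figure D4:**
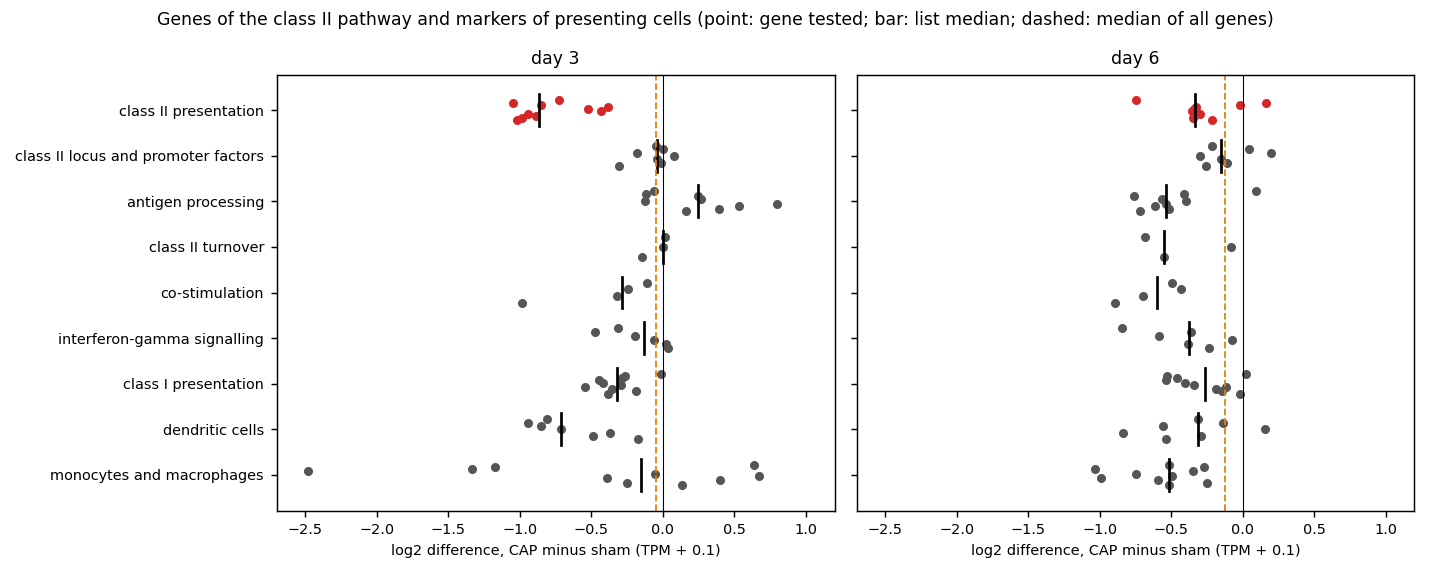
Log2 difference of TPM + 0.1, CAP minus sham (horizontal axes), at day 3 and day 6 for the genes tested of 9 lists, with red points for the class II genes, grey points for the other lists, a short bar at each list's median and a dashed line at the median of all genes. At day 3 the class II median is −0.87 against −0.04 for promoter factors, 0.25 for antigen processing and −0.32 for class I presentation.

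Of 4 co-stimulation genes, which give T cells their second signal, 0 passed the threshold at day 3 (median −0.28) or day 6 (median −0.60). Cd40 was just short of 2-fold at both days, with −0.99 and −0.89. Of 6 tested genes of interferon-gamma signalling, 0 passed the threshold, with medians of −0.13 at day 3 and −0.37 at day 6. A lower value with an unadjusted p under 0.05 from limma was found in 2 of the 6 at day 3 (5.14% of all genes). At day 6 it was found in 3 of the 6 (12.5% of all genes). Ifng itself was at or below 0.407 TPM in all 12 libraries and did not pass the filter. Of 3 genes of class II turnover tested, 0 passed the threshold at either day, with medians of 0.00 and −0.55. Cd83, which shields class II from degradation, rose by 1.03 from day 3 to day 6 in the sham wounds (adjusted p = 0.0362 from limma), and in the CAP-treated wounds it had 0.33 (limma unadjusted p = 0.501). The interaction of Cd83 was −0.70 (limma unadjusted p = 0.227).

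Cd4, the co-receptor on T cells that binds class II and that some mouse macrophages and dendritic cells also make, rose between the days in both treatments. It had 9.75, 7.68 and 6.19 TPM in the sham wounds of day 3 and 55.1, 22.3 and 47.7 TPM at day 6, a log2 difference of 2.31 (adjusted p = 0.0249 from limma). In the CAP-treated wounds it had 11.7, 4.57 and 5.61 TPM at day 3 and 33.8, 24.5 and 32.9 TPM at day 6, a log2 difference of 2.15 (limma unadjusted p = 5.40e-04, adjusted p = 0.2495). Cd4 did not differ past the threshold between the treatments, with log2 differences of −0.20 at day 3 and −0.37 at day 6. Lag3, an inhibitory receptor for class II, had log2 differences of −0.05 and −0.07.

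Class I presentation, the sister pathway that shows peptides of the cytosol to CD8+ T cells, was set beside class II. Of its 10 genes 0 passed the threshold at day 3, 10 of 10 had a negative log2 difference, 5 had a lower value with an unadjusted p under 0.05 (5.14% of all genes), and the median was −0.32. Tap1, a peptide transporter encoded within the class II cluster, had −0.54 and H2-K1, a class I heavy chain, −0.38. Nlrc5, the counterpart of CIITA for class I, had 31.8, 30.9988 and 32.9 TPM in the sham and 36.0, 29.7 and 29.5 TPM in the CAP libraries, a log2 difference of −0.01, with overlap. The classical class II chains per H2-K1 were 0.673, 0.553 and 0.604 in the sham and 0.502, 0.365 and 0.392 in the CAP libraries of day 3, without overlap (p = 0.1 and adjusted p = 0.32 in the exact test). At day 6 the median of the class I genes was −0.26, with 4 of 10 lower at an unadjusted p under 0.05 (12.5% of all genes), and the ratio to H2-K1 overlapped (p = 0.3 in the exact test).

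The genes whose pattern was most like that of the members were sought among 16159 genes of at least 1 TPM, by Pearson's r over the 12 libraries with the mean log2 value of the 10 members. Cfb, complement factor B, came first (r = 0.965, Spearman's rho = 0.958), followed by Fgd2 (r = 0.946), Fbln1 (r = 0.932), Ms4a6b (r = 0.929), Kmo (r = 0.925), Gm1966 (r = 0.914), Lifr (r = 0.912), Kif7 (r = 0.911), Cbfa2t3 (r = 0.911) and C1qa (r = 0.907). Cfb ranged from 175 to 429 TPM. The libraries fall into 4 groups, and over the deviations from the group means r was 0.917 for Cfb, 0.948 for Fgd2 and 0.749 for Cbfa2t3, the lowest of the 10. Without the 2 libraries farthest from the median, CAP replicates 2 and 3 of day 3, r was 0.945 for Cfb and 0.781 for Lifr, the lowest of the 10. Presenting cell markers were spread widely: Cd209a had r = 0.830, Flt3 0.823, Ccr2 0.804, Csf1r 0.718 and Ly6c2 0.613, while Itgax, a dendritic cell integrin, had 0.278, Cd207 0.157, Adgre1 0.0689 and Cd68 −0.22. The points share library and normalization, and no p is given.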

How the data were processed

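Wound RNA was sequenced in paired-end mode (SureSelect XT HS2 mRNA library kit). The submitters' processing notes name bcl2fastq, Trimmomatic 0.36 and mm10, and the paper's methods name StringTie. Aligner, annotation and strand setting: not given in the sources used here. The authors deposited 12 tables of TPM, 1 per library, with 0 other columns of per-sample values. Each sums to between 1000003.08 and 1000003.23, and 0.0001 TPM stands in place of 0. Depth is unknown, so precision rests on the spread between 3 libraries.

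Genes whose mean reached 0.3 TPM in each group compared (for the interaction, in 1 or more of the 4) were fitted on log2(TPM + 0.1) by limma 3.58.1 (R 4.3.3), using its intensity trend and Benjamini-Hochberg adjustment over all genes. A fold change on this scale understates that of low genes. A gene was called at an unadjusted p under 0.05 and at least 2-fold, the study's threshold, and exact permutation tests were 2-sided. Python 3.11.15 with numpy 2.4.6 and pandas 2.3.3 read the tables, and matplotlib 3.10.9 drew the figures. The fit was tested on simulated data.

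The members, the 7 pathway lists and the 12 marker lists were chosen with earlier results of these data known. Named are all 10 members and the 10 genes most like the members. So are Ifng, Nlrc5, Ctss, Ifi30, Rfx5, Cd4 and listed pathway genes past the threshold in a comparison. Of the genes that overlap a member, Mir5107, Brd2 and Dexi are named above. The others had group means of at most 0.1112 TPM. They include BC051537, over 2895 bases of H2-Oa, and Gm20513, over 2204 bases of H2-Eb1, each on the other strand. Cd40, Tap1, H2-K1, Lag3, Cd83 at other comparisons and single cell type markers were named after their values were seen. Some listed genes are not reported here. Alternatives were a pseudocount of 1 or 0.01 TPM, no filter, median-ratio scaling, quantile normalization, a joint fit of 12 libraries, the replicate number as a block, and leaving out each library.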

Additional observations from a re-analysis of the deposited data

Results flagged for a closer look

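H2-Ob, the beta chain of H2-DO, was the 1 member whose CAP effect differed between the days past the threshold. The difference was 1.21 on the log2 scale (unadjusted p = 0.0425 and adjusted p = 0.435 from limma). At day 3 its log2 difference was −1.05 and at day 6 0.16. The levels behind it are low: the 12 libraries lay between 0.622 and 3.12 TPM, and sham replicate 1 of day 3 held the highest. Leaving out 1 library gave values from 0.89 to 1.57. The call was lost without sham replicate 1 or 3 or CAP replicate 3 of day 3. It was also lost without sham replicate 1 or 2 or CAP replicate 1 or 3 of day 6. With a pseudocount of 1 TPM or with no filter H2-Ob was not called either. In the sham wounds H2-Ob had a log2 difference of −0.75 between the days (limma unadjusted p = 0.0279), which enters the interaction.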

How the results depend on the processing

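At day 3, 130 values of the 10 members under alternatives gave 0 changes of sign, and 114 kept their side of the threshold. The number of members called, 2, became 1 when 1 TPM was added before the log, 0 under median-ratio scaling and 1 under quantile normalization, and leaving out 1 library gave 0 to 5. At day 6 and for the days of the sham group it was 0 in every setting run. For the days of the CAP group it was 0, and 0 to 1 with 1 library left out. For the interaction, 1 became 0 with a pseudocount of 1 TPM and 0 with no filter, and 0 to 2 with 1 library left out. The cause was not tested.

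Over all 5 comparisons, 41 of 700 member values changed sign. Not all were near 0 in the main fit: H2-Oa between the days of the sham group had −0.22 and H2-Ob at day 6 had 0.16. The sign of these 2 changed with 1 library left out. With median-ratio scaling and quantile normalization the values that changed sign were H2-Oa at day 6 (0.10 and 0.14), H2-DMb2 between the days of the CAP group (0.0176 and 0.0277) and the interaction of Ciita (0.0334 and 0.0419). With median-ratio scaling Cd74 between the days of the sham group did so too (−0.00093). With 1 library left out, values ranged at day 6 from −0.26 to 0.24 for H2-Oa and from −0.0897 to 0.52 for H2-Ob. Between the days of the sham group they ranged from −0.17 to 0.14 for Cd74, −0.21 to 0.20 for H2-Aa, −0.21 to 0.11 for H2-Ab1, −0.29 to 0.0798 for H2-Eb1, −0.15 to 0.0662 for H2-DMa, −0.15 to 0.0824 for H2-DMb1, −0.20 to 0.0439 for H2-DMb2 and −0.48 to 0.0183 for H2-Oa. Between the days of the CAP group they ranged from −0.12 to 0.10 for H2-DMa and −0.20 to 0.27 for H2-DMb2, and in the interaction from −0.24 to 0.24 for Ciita, −0.0596 to 0.17 for H2-DMa and −0.13 to 0.35 for H2-DMb2.

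Samples with the same replicate number had r of their deviations from −0.107 to 0.032 at day 3 and from 0.004 to 0.068 at day 6. Samples with different numbers had −0.112 to 0.115 and −0.070 to 0.018. The sources used here do not say what the numbers mean, and the main fit did not take them as pairs. In Cd74, H2-Aa, H2-Ab1 and H2-Eb1, however, replicate 1 was the highest and replicate 2 the lowest in each of the 4 groups. These 4 genes vary together, with r from 0.954 to 0.985 to the mean of the members, which includes them. In every other member the order failed in 1 or more groups. H2-DMa, for example, had 39.3, 31.5 and 41.8 TPM in the CAP libraries of day 3. Whether the numbers mark pairs is therefore not settled. With the replicate number as a block, 2 members were called at day 3, 0 at day 6, 0 between the days in either group and 1 in the interaction, the same numbers as without it. A lower value with an unadjusted p under 0.05 was then found for 9 members at day 3 (5.28% of all genes in the same fit) and for 6 at day 6 (15.2% of all genes), where the fit without the block had 1. Those 6 were H2-Aa, H2-Ab1, H2-Eb1, H2-DMa, H2-DMb1 and Ciita. A higher value with such a p was found for 4 members between the days of the CAP group (7.69% of all genes) and for 5 in the interaction (6.83%), against 5 and 2 without the block.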
